A study of Mus musculus with 54 samples.

Results

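Spermatocytes of mice heterozygous for *Ctcf* (Ctcf+/- Boris+/+, CTCF HET) were compared with wild-type spermatocytes (Ctcf+/+ Boris+/+, WT). The comparison uses 5 of the 54 samples of the series, 3 RNA-seq libraries labelled CTCF HET and 2 labelled WT, which were chosen by the genotype, cell type and replicate in their titles. All animals were C57BL/6 males of 3 months, and each germ cell preparation pooled 4 mice. Spermatocytes were enriched from dissociated testes by centrifugal elutriation and then sorted by flow cytometry on a DNA dye, with dead cells removed, and polyadenylated RNA was sequenced. Where a second set of libraries was needed, BORIS KO spermatocytes (Ctcf+/+ Boris-/-, 3 libraries), spermatocytes of the combined mutant (Ctcf+/- Boris-/-, CM, 3 libraries) and round spermatids of the CTCF HET, WT and BORIS KO genotypes (3 libraries each) were taken from the same count table. Nothing in the labels says whether libraries of a group came from separate preparations, so the tests measure the spread between libraries, which may be technical.

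CTCF is a zinc-finger protein that binds DNA at many sites and, with the cohesin ring, holds the bases of chromatin loops. BORIS, encoded by *Ctcfl*, is its testis-specific paralogue and shares many of its sites. Embryos without any CTCF die early, whereas heterozygous mice are viable. Primary spermatocytes are the germ cells in meiotic prophase, when homologous chromosomes pair and recombine. During that stage the X and Y chromosomes are transcriptionally silenced, and a part of the X-linked genes is expressed again in round spermatids, the haploid cells that follow.

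The CTCF HET libraries stood apart from the WT libraries in more than the level of single genes. The WT libraries held 83897506 and 81570481 counts, and the CTCF HET libraries 62090150, 53337530 and 54034376. A count was present for 17683 and 17631 genes in WT, but for 12443, 12018 and 13406 genes in CTCF HET. Genes with 1 to 9 counts numbered 3758 and 3752 in WT and only 169, 189 and 593 in CTCF HET, a larger gap than the depths differ. In addition, 324 genes had 0 counts in at least 1 CTCF HET library and at least 100 in another, which happened for 0 genes between the WT libraries. Pearson's r of log2 CPM (counts scaled to a common library total) across genes was 0.9985 between the WT libraries and 0.9637 to 0.9712 between CTCF HET libraries, with genes as points that are not independent replicates. The WT libraries differed by 7.842 times their counting variance and so were counted as separate samples. Transcripts rich in G and C were lower in CTCF HET libraries as a class, which is described below, and the main counts of calls are therefore also given with the trend of each library on transcript GC content removed by an offset. This setting was chosen after the data were seen.

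*Ctcf* itself did not pass the test, and 2 of the 3 libraries labelled CTCF HET lay above WT. Its counts were 2676 and 2518 in WT and 2428, 2571 and 1480 in CTCF HET. Scaled for library size by the trimmed mean of M-values (TMM), these were 31.2 and 30.1 CPM in WT against 40.03, 47.8 and 28.3 CPM in CTCF HET. All CPM values below are scaled in this way, other than sums over markers of cell types. Thus CTCF HET 1 and 2 lay above both WT libraries and CTCF HET 3 below them. The log2 fold change was 0.34 ± 0.22 (SE), and the adjusted p was 0.366 (edgeR quasi-likelihood test with Benjamini-Hochberg adjustment, used for all adjusted p values below). Which part of the gene the null allele lacks is not given in the sources used here, so counts over the whole gene may not check the label, and the libraries are named by their labels throughout. *Ctcfl* had 6 and 5 counts in WT and 0, 94 and 0 in CTCF HET, too few to be tested.

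*Rltpr*, which encodes a regulator of actin filament capping and lies directly downstream of *Ctcf*, separated the genotypes in every library. In mm9, *Ctcf* lies at chr8:108160468-108206822 and *Rltpr* at chr8:108210174-108222078, both on the plus strand. *Rltpr* was at 1.48 and 1.504 CPM in WT and at 60.8, 35.5 and 50.5 CPM in CTCF HET. All 3 CTCF HET libraries were far above both WT libraries, by a log2 fold change of 5.03 ± 0.29 or 32.7-fold (adjusted p = 0.00176). Round spermatids, which are other libraries, showed the same contrast, with 0.874, 1.06 and 0.552 CPM in WT against 61.8, 74.0 and 57.4 CPM in CTCF HET (log2 6.26, adjusted p = 1.19e-05). In BORIS KO spermatocytes *Rltpr* was at 2.19, 2.69 and 2.83 CPM, and in CM spermatocytes at 70.2, 51.7 and 43.8 CPM. Thus, of the spermatocyte libraries and of these round spermatid libraries, all those labelled with a single functional *Ctcf* allele were high and all others low. It also was the only gene called when CTCF HET 2 was left out (log2 5.26 ± 0.157, adjusted p = 0.0364).

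The neighbourhood of *Ctcf* was examined by a list of 41 genes along chromosome 8, of which 34 were tested. There, 1 gene was called higher (*Rltpr*) and 4 were called lower, where a call stands for an adjusted p below 0.05 with a fold change above 2. Over all genes tested, 2.27% were called higher and 2.62% lower. *Kctd19*, a meiotic protein needed for spermatocytes to complete meiosis, was at 726 and 810 CPM in WT and at 353, 375 and 393 CPM in CTCF HET (log2 -1.04 ± 0.09, adjusted p = 0.00388). *Plekhg4* was at 13.97 and 16.4 CPM in WT and at 2.65, 5.35 and 2.66 CPM in CTCF HET (log2 -2.09 ± 0.36, adjusted p = 0.0122). *Elmo3* (log2 -1.75 ± 0.33) and *Lrrc29* (log2 -1.32 ± 0.28) were the other members called lower. In each of these genes every CTCF HET library was below both WT libraries. *Kctd19* lay at the 2-fold threshold and was under it with RLE or upper-quartile scaling. With the GC offset none of the 4 was called, and their log2 fold changes were -1.53 for *Plekhg4* (adjusted p = 0.0617), -1.26 for *Elmo3* (adjusted p = 0.0633), -0.73 for *Kctd19* (adjusted p = 0.0141) and -0.67 for *Lrrc29* (adjusted p = 0.206). The median of the 34 genes went from -0.547 to -0.065, beside 0.023 over all genes with the offset.

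The deposited peaks of whole testis show CTCF at the promoters of both *Rltpr* and *Kctd19* in WT, and the 200 bases around each summit are printed because these genes changed in opposite directions in the same neighbourhood. The *Rltpr* peak (height 2726, rank 3027 of 34625 WT CTCF peaks) has its summit 357 bases upstream of the annotated gene start, overlaps a CTCF peak of CM testis and no BORIS peak. The *Kctd19* peak (rank 7166) has its summit 196 bases upstream, overlaps a BORIS peak and no CTCF peak of CM testis. Both windows were searched on both strands for the core CCANNAGNNGGC of the CTCF motif. It stands in 39.1% of the 200-base windows of WT CTCF peaks and in 2.19% of windows 1000 bases away. Neither of the printed windows held a match, so no letters are in capitals.
Rltpr, chr8:108209717-108209916, plus strand: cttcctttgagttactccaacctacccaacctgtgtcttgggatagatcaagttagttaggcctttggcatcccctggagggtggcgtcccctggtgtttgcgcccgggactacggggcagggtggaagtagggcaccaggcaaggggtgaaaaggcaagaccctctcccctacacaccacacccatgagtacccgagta
Kctd19, chr8:107937498-107937697, minus strand: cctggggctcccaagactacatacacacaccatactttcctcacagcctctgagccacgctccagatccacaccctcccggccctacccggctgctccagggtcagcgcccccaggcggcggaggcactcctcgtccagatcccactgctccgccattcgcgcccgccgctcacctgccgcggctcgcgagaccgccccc

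Of 13648 genes tested, 667 (4.89%) were called between CTCF HET and WT spermatocytes, 310 higher and 357 lower in CTCF HET. In all 667 the CTCF HET libraries lay outside the range of the WT libraries, which was also true of 52.8% of all genes tested. The direction split depended on the scaling, with 344 higher and 259 lower under RLE size factors and 376 higher and 217 lower under upper-quartile scaling, because the median log2 fold change of all genes was -0.089, -0.018 and 0.025 under TMM, RLE and upper-quartile scaling, respectively. With the GC offset 237 genes were called higher (1.74%) and 38 lower (0.278%), among them 167 of the 310 and 34 of the 357. A single library decided the number of calls, which was 1 without CTCF HET 2, 297 without CTCF HET 1 and 1827 without CTCF HET 3. All 667 genes kept their direction in these fits, which their lack of overlap between the groups fixed in advance.

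Among the genes called higher with the smallest adjusted p values were *Ap3s1*, *Gm6455*, *H3f3a* and *Zfand3*. *Ap3s1*, a subunit of the AP-3 vesicle adaptor, was at 10.1 and 9.77 CPM in WT and at 48.8, 58.8 and 54.6 CPM in CTCF HET (log2 2.44 ± 0.15, adjusted p = 0.00176). *Gm6455* was at 26.1 and 25.0 CPM in WT and at 152, 219 and 232 CPM in CTCF HET (log2 2.97 ± 0.20, adjusted p = 0.00224). *H3f3a*, which encodes the replacement histone H3.3, was at 102 and 71.8 CPM in WT and at 322, 298 and 311 CPM in CTCF HET (log2 1.84 ± 0.16, adjusted p = 0.00388). The groups did not overlap in any of these genes, and in each the lowest CTCF HET library was more than 2-fold above both WT libraries. *Zfand3*, a zinc-finger gene expressed strongly in testis, was at 145 and 136 CPM against 340, 367 and 308 CPM. A further 2 genes were named after their values were seen. *Gpd2*, the mitochondrial glycerol-3-phosphate dehydrogenase, was at 11.6 and 12.1 CPM against 35.9, 43.6 and 45.1 CPM. *A330076C08Rik* was almost silent in WT, at 0.513 and 0.418 CPM, and reached 15.6, 7.57 and 14.9 CPM in CTCF HET. Using the GC offset, the log2 fold changes of the 4 genes taken by adjusted p were 2.09, 2.77, 1.62 and 1.81, each still called, whereas *Btbd1*, which has an adjusted p of 0.00388 on the deposited counts, lost its call at 0.90.

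Other genes called higher were named for their high mean CPM. *Ift74*, a component of intraflagellar transport, was at 1248 and 952 CPM in WT and at 2953, 2421 and 2401 CPM in CTCF HET (log2 1.24 ± 0.15, adjusted p = 0.00586). *Ppig*, a nuclear cyclophilin, was at 738 and 523 CPM against 2261, 1621 and 1500 CPM. *Sfr1* was at 370 and 248 CPM against 1273, 997 and 1009 CPM. In these genes every CTCF HET library was above both WT libraries, and WT 1 was above WT 2. *Zranb2* and *Hnrnpc*, which act in pre-mRNA splicing and binding, had log2 fold changes of 1.27 ± 0.19 and 1.25 ± 0.18, and *Ccdc110* and *Btbd1* of 1.07 ± 0.10 and 1.03 ± 0.09. Under the GC offset *Ift74*, *Zranb2*, *Ccdc110* and *Btbd1* went to log2 0.96, 0.98, 0.98 and 0.90, all under the fold threshold.

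Genes lower in CTCF HET were led by *Sfi1*, a centrosomal protein. It was at 64.2 and 72.1 CPM in WT and at 12.4, 9.91 and 11.5 CPM in CTCF HET (log2 -2.60 ± 0.15, adjusted p = 0.00176). *Cox8c*, the testis isoform of a cytochrome c oxidase subunit, was at 842 and 1094 CPM against 269, 248 and 282 CPM (log2 -1.86 ± 0.12, adjusted p = 0.00224). *Ndufs6*, a subunit of respiratory complex I, was at 162 and 186 CPM against 56.2, 54.1 and 60.5 CPM (log2 -1.61 ± 0.11, adjusted p = 0.00224). In these 3 genes the CTCF HET libraries were tightly grouped below WT, and the call was kept with the GC offset at log2 -2.12, -1.80 and -1.52. *Rnf126*, a ubiquitin ligase, was at 294 and 365 CPM against 114, 116 and 112 CPM. *Ggn*, a germ cell protein of late spermatogenesis, was at 668 and 833 CPM against 309, 258 and 232 CPM. Both had log2 fold changes near -1.5 on the deposited counts, but with the offset these were -0.64 and -0.53 and no call remained. The alpha-tubulin genes *Tuba3a* (log2 -1.12) and *Tuba3b* (log2 -1.25) were also called lower on the deposited counts, at -0.56 and -0.70 with the offset neither was called, and they are nearly identical copies whose reads the counting could split.

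**Figure D1:**
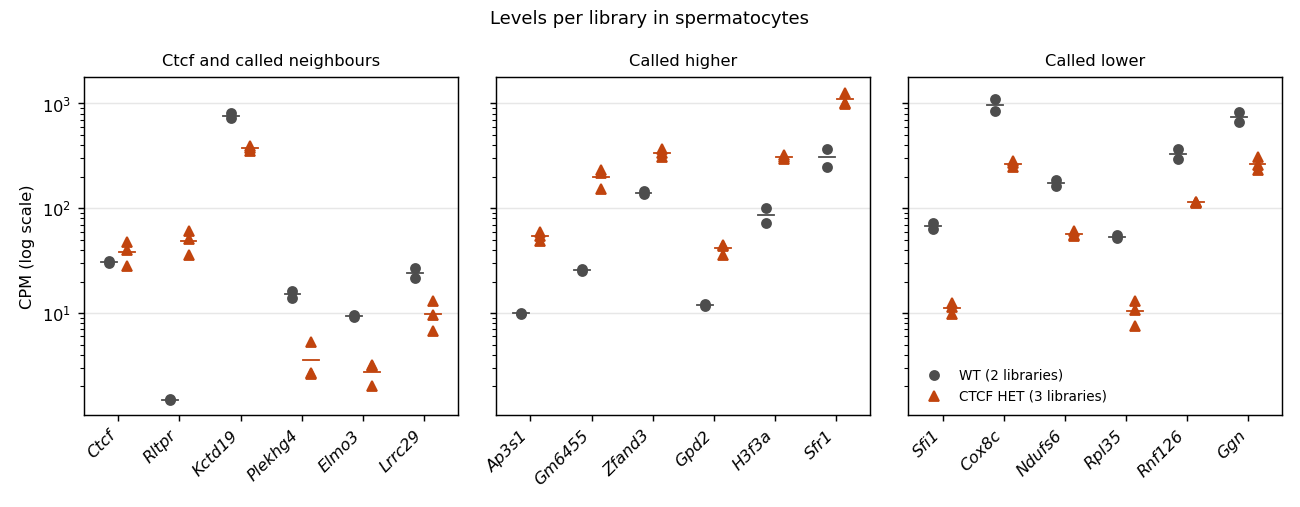
CPM (log axis) of named genes in each spermatocyte library, circles for the 2 WT and triangles for the 3 CTCF HET libraries, with short lines at the group means. *Rltpr* lies above WT and the other called neighbours of *Ctcf* below it, whereas the CTCF HET points of *Ctcf* lie on both sides of the WT points.

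X-linked genes were called higher in a larger share than autosomal genes. Their median levels in the WT libraries were 0.28 and 0.287 CPM, so a fall could hardly be called. Of 2080 tested genes with a mean of at most 0.5 CPM, 0 were called in either direction. Of 261 X-linked genes tested, 33 (12.6%) were called higher and 0 lower, with a median log2 fold change of 1.82, whereas of 12900 autosomal genes 258 (2.0%) were called higher and 351 (2.72%) lower, with a median of -0.109. The summed level of the 261 genes was 147 and 135 CPM in WT and 780, 723 and 316 CPM in CTCF HET. It was 121, 151 and 149 CPM in BORIS KO spermatocytes and 396, 721 and 1114 CPM in CM spermatocytes. Thus the libraries of both genotypes with a single functional *Ctcf* allele were above those with both alleles, and CTCF HET 3 was the lowest of them. Genes with 1 to 9 counts were also fewer in the CM libraries, at 2074, 338 and 782, than in BORIS KO, at 3764, 3711 and 3894, as they were in CTCF HET, and the part of this in the X-linked levels was not tested. In round spermatids the same genes reached 8401, 8590 and 8878 CPM in WT and 5846, 5067 and 6069 CPM in CTCF HET. Genes above 1 CPM numbered 32 and 31 in WT and 139, 143 and 67 in CTCF HET. With the GC offset 16 of the 261 were called higher and the median was 1.705, so the shift of the median moved little. The number called higher was 7, 0 and 61 without CTCF HET 1, 2 and 3, respectively. Over all genes it was 97, 1 and 497. Another 15 X-linked genes were called lower without CTCF HET 3. The 6 Y-linked genes tested had a median of 2.724, and 0 were called.

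Single X-linked genes, named after their values were seen, show how far these levels were from those of spermatids. *Gm595* was at 5.34 and 3.88 CPM in WT and at 61.5, 76.7 and 32.1 CPM in CTCF HET (log2 3.62 ± 0.40, adjusted p = 0.00501), against 642, 823 and 836 CPM in WT round spermatids. *Akap4*, the main scaffold of the sperm fibrous sheath, was at 9.45 and 8.91 CPM in WT and at 34.5, 38.0 and 20.6 CPM in CTCF HET (log2 1.76 ± 0.28, adjusted p = 0.0101), against 512, 568 and 568 CPM in WT round spermatids. *Rpgr*, a ciliary protein, was at 2.43 and 2.29 CPM against 25.8, 18.2 and 9.42 CPM (log2 2.91 ± 0.45, adjusted p = 0.00918). In each of the 3 genes all CTCF HET libraries exceeded WT, with CTCF HET 3 the lowest of them, and all remained far below spermatids. *Upf3b*, of nonsense-mediated decay, *Cul4b*, a ubiquitin ligase scaffold, and *Cylc1*, of the sperm head cytoskeleton, were also called higher, with log2 fold changes of 3.18 ± 0.53, 2.23 ± 0.44 and 2.42 ± 0.45.

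Genes with a high level in round spermatids were called higher both on the X chromosome and on autosomes. Genes were divided by their log2 ratio between round spermatids and spermatocytes of BORIS KO mice, libraries outside the comparison. Of 997 tested genes more than 8-fold higher in round spermatids (log2 above 3), 180 (18.1%) were called higher and 0 lower in CTCF HET spermatocytes, with a median log2 fold change of 1.387. This class held 180 of the 310 genes called higher. Only 628 of the 997 had a mean of at least 1 CPM over the WT and CTCF HET libraries. A fall could hardly be called in the others, so the lack of lower calls was in part set by the class. The filter also lets genes pass that are well counted in CTCF HET libraries only. Within it, 32 of 160 X-linked genes (20.0%) and 143 of 780 autosomal genes (18.3%) were called higher. Of 237 genes at the other end, at least 8-fold lower in round spermatids, 3 were called higher and 17 (7.17%) lower, or 4 and 1 with the GC offset. Of the spermatid class 101 genes were called higher with the offset, of the 237 genes called higher with it. Without CTCF HET 1 it was 25 of 97, without CTCF HET 2 it was 0 of 1, and without CTCF HET 3 it was 326 of 497, with 29 lower. Since bulk libraries are compared, more spermatid cells in the sort and more of this RNA per spermatocyte cannot be told apart.

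Markers of cell types were read beside these results. Of 36 spermatid markers tested, 8 were called higher (*Akap4*, *Prm1*, *Spaca7*, *Smcp*, *Tssk2*, *Acrv1*, *Spaca1* and *Akap3*) and 0 lower, with a median log2 fold change of 0.92. *Smcp*, of the sperm mitochondrial capsule, was at 22.0 and 18.5 CPM in WT and at 159, 171 and 48.8 CPM in CTCF HET. *Prm1*, which encodes protamine 1 and packs sperm DNA, was at 5.78 and 5.50 CPM against 14.4, 15.1 and 12.9 CPM. Called with the GC offset were 5 of the 36. Sums over marker lists are in CPM of the library totals, without TMM scaling. The summed level of all spermatid markers was 4146 and 4337 CPM in WT and 5429, 5555 and 5267 CPM in CTCF HET, with every CTCF HET library above WT. Most of this sum and of its difference came from *Odf2*, of the sperm outer dense fibres, which was not called (log2 0.50). With TMM scaling *Odf2* was at 2931 and 3017 CPM against 4198, 4158 and 4253 CPM. The summed spermatocyte markers were at 31593 and 32382 CPM in WT and 29247, 28221 and 28572 CPM in CTCF HET, and 0 of 29 were called. Over the members tested, and with TMM scaling, they also summed to 19602 to 21590 CPM in the WT and CTCF HET round spermatid libraries. These sums were below those of the spermatocyte libraries but still high, so this RNA is not confined to spermatocytes. They differ in scaling and members from the spermatocyte sums above, so the size of the gap is not informative. Summed spermatogonia markers were at 1558 and 1785 CPM against 1122, 977 and 938 CPM, with 0 of 16 called. *Dmrtb1* made up most of that sum, at 1368 and 1585 CPM against 1001, 835 and 841 CPM (log2 -0.73, or 0.02 with the offset), and the median over the list was 0.219. Markers of somatic cells were low throughout, with summed Sertoli markers at 23.2 and 23.6 CPM against 20.1, 18.9 and 15.1 CPM and summed Leydig markers at 43.1 and 46.2 CPM against 39.3, 42.0 and 42.6 CPM. Myoid, macrophage and endothelial markers summed to 3.06 to 10.1 CPM and red blood cell markers to 0 to 0.58 CPM. The part of spermatid RNA in the other results was not tested.

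**Figure D2:**
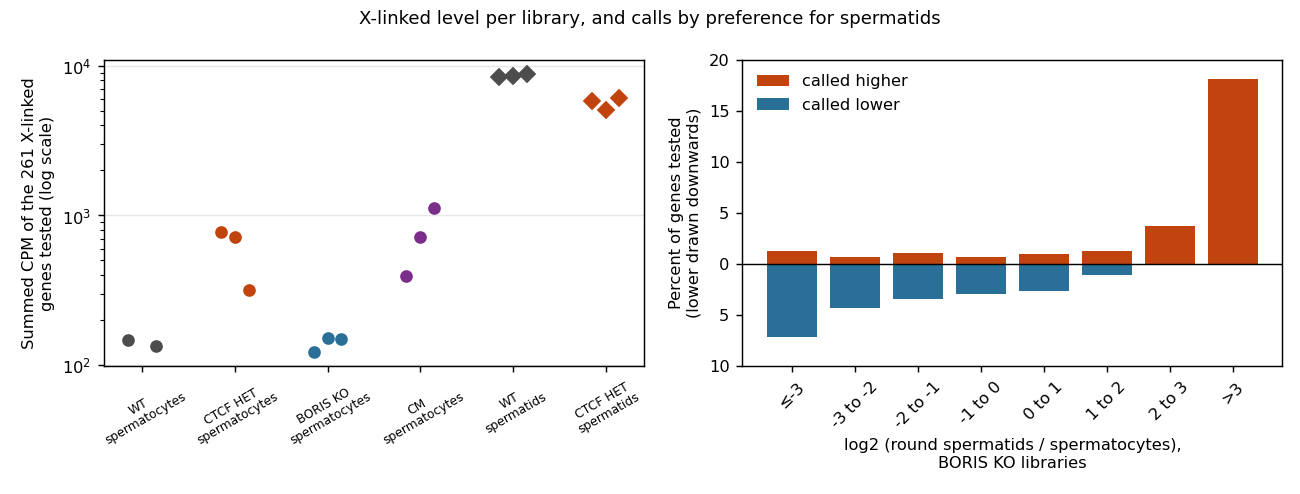
Left, summed CPM of the 261 X-linked genes tested (log axis) in each library, circles for spermatocytes and diamonds for round spermatids. Right, percent of tested genes called higher and lower (drawn downwards) in CTCF HET spermatocytes, by the log2 ratio of round spermatids to spermatocytes in BORIS KO, where the class above 3 stands out with 18.1% called higher.

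Genes of cohesin and meiotic chromosomes changed in few members. Of 20 genes of cohesin and its loaders, 2 were called higher and 0 lower, with a median log2 fold change of 0.263, or 1 and 0 with -0.047 under the GC offset. *Rec8*, the meiotic kleisin that holds sister chromatids, was at 0.957 and 0.883 CPM in WT and at 11.2, 6.71 and 2.62 CPM in CTCF HET (log2 2.90 ± 0.64, adjusted p = 0.0255). *Stag2*, an X-linked subunit of the cohesin ring, was at 0.840 and 0.991 CPM against 4.91, 11.4 and 3.08 CPM (log2 2.82 ± 0.63, adjusted p = 0.0258). Both are in the class more than 8-fold higher in spermatids, and all CTCF HET libraries were above WT. *Smc3*, the core subunit, was at 33.7 and 28.98 CPM against 51.1, 49.99 and 52.3 CPM (log2 0.71, adjusted p = 0.0128), under the fold threshold. Of 14 CTCF partners and related genes, 1 was called, *Maz*, at 58.2 and 66.4 CPM against 26.1, 31.3 and 26.7 CPM (log2 -1.15 ± 0.14), which had a log2 fold change of -0.24 with the GC offset.

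Within 16 genes of the synaptonemal complex and chromosome axis, 1 was called, *Fkbp6* (lower, log2 -1.25 ± 0.25). *Sycp3*, the main axis protein, was at 411 and 335 CPM in WT and at 547, 556 and 611 CPM in CTCF HET, with log2 0.61 ± 0.11 or 0.19 with the GC offset. Of 41 meiotic recombination genes, *Tex15*, at 5.13 and 4.60 CPM against 30.5, 30.5 and 10.3 CPM, was called higher and *Prr19* and *Mus81* were called lower. *Tex15* is in the class more than 8-fold higher in spermatids, at 382, 417 and 388 CPM in WT round spermatids. *Spo11*, which makes the meiotic double-strand breaks, was at 147 and 138 CPM against 152, 142 and 146 CPM (log2 0.04 ± 0.09, adjusted p = 0.847). Among 36 meiotic cell cycle genes *Pkmyt1*, an inhibitory kinase of CDK1, was called lower (log2 -1.51 ± 0.27). Among 17 genes of sex chromosome silencing, *Fancd2* of the Fanconi pathway was called higher, at 101 and 90.3 CPM against 257, 195 and 196 CPM. *H2afx*, whose phosphorylated product coats the silenced XY body, was called lower, at 16.9 and 19.8 CPM against 7.27, 4.57 and 8.63 CPM, and had log2 -0.54 in place of -1.43 with the GC offset. Of 25 piRNA and germ granule genes, *Tdrd3* was called higher and *Gpat2* and *Adad2* lower. The medians of these lists lay between -0.136 and 0.403, beside -0.089 over all genes. Of the genes called lower in these lists, *Fkbp6*, *Prr19*, *Mus81*, *Pkmyt1*, *H2afx*, *Gpat2* and *Adad2*, none was called with the GC offset, and of those called higher *Tex15* and *Tdrd3* were not.

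Ribosomal protein genes were called in the lower direction. Of 74 tested, 14 (18.9%) were called lower and 0 higher, the median log2 fold change was -0.461, and in 42 every CTCF HET library was below WT, beside 32.7% of all genes tested. *Rpl35* was at 51.6 and 55.6 CPM in WT and at 10.6, 7.51 and 13.0 CPM in CTCF HET (log2 -2.37 ± 0.23, adjusted p = 0.00388). *Rplp0*, of the ribosomal stalk, was at 154 and 175 CPM against 67.9, 63.6 and 75.8 CPM (log2 -1.25 ± 0.11, adjusted p = 0.00388). Under the GC offset 3 were called lower, the median was -0.295, and *Rpl35* had log2 -1.78. Processed copies of these genes are common, so their reads may be split in counting. Of 76 respiratory chain genes, 7 (9.21%) were called lower and 2 (2.63%) higher, with a median of -0.095. Over all genes tested, for comparison with both lists, 2.62% were called lower and 2.27% higher. *Uqcr11*, of complex III, was at 8.14 and 10.8 CPM against 0.725, 1.08 and 1.30 CPM (log2 -3.20 ± 0.38, adjusted p = 0.00565). Of these 76, 4 were called lower with the GC offset, *Cox8c*, *Ndufs6*, *Uqcr11* and *Ndufb8*, and the median was then 0.054. In both lists 0 were called without CTCF HET 2, where *Rltpr* was the only call over all genes. The medians were then -0.44 for ribosomal protein and -0.011 for respiratory chain genes.

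The other lists held at most 4 calls in a direction. *Klf4*, a transcription factor of the immediate early list that is also abundant in round spermatids, was at 6.25 and 5.97 CPM in WT and at 30.2, 23.8 and 13.1 CPM in CTCF HET, the only call among 12 genes. *Trp53*, which encodes p53, was at 5.18 and 6.23 CPM against 1.43, 2.44 and 2.07 CPM, the only call among 15 heat shock and p53 genes and none with the offset. Of 11 genes of the Bcl2 family *Bcl2l14* was called higher and *Bad* lower (log2 -1.37 ± 0.19), neither with the offset. Of 39 axoneme and flagellum genes, 4 (10.3%) were called higher and 1 (2.56%) lower, beside 2.27% and 2.62% of all genes tested. Of 39 splicing genes there was 1 call in each direction, of 22 glycolysis genes 1 was higher, of 23 chromatin genes 1 was lower and of a list of 10 long noncoding RNAs 1 was higher. Lists with 0 calls were those of 41 proteasome, 17 ribosome biogenesis, 24 imprinted, 14 canonical histone, 9 Hox and 8 clustered protocadherin genes. Of 25 genes that the study names for its RNA-seq, a list chosen on samples of this series, 16 were tested here, and *Prss38*, a testis serine protease, was the only one called (6.56 and 7.20 CPM against 1.35, 1.49 and 2.49 CPM, log2 -1.95 ± 0.39, adjusted p = 0.019).

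**Figure D3:**
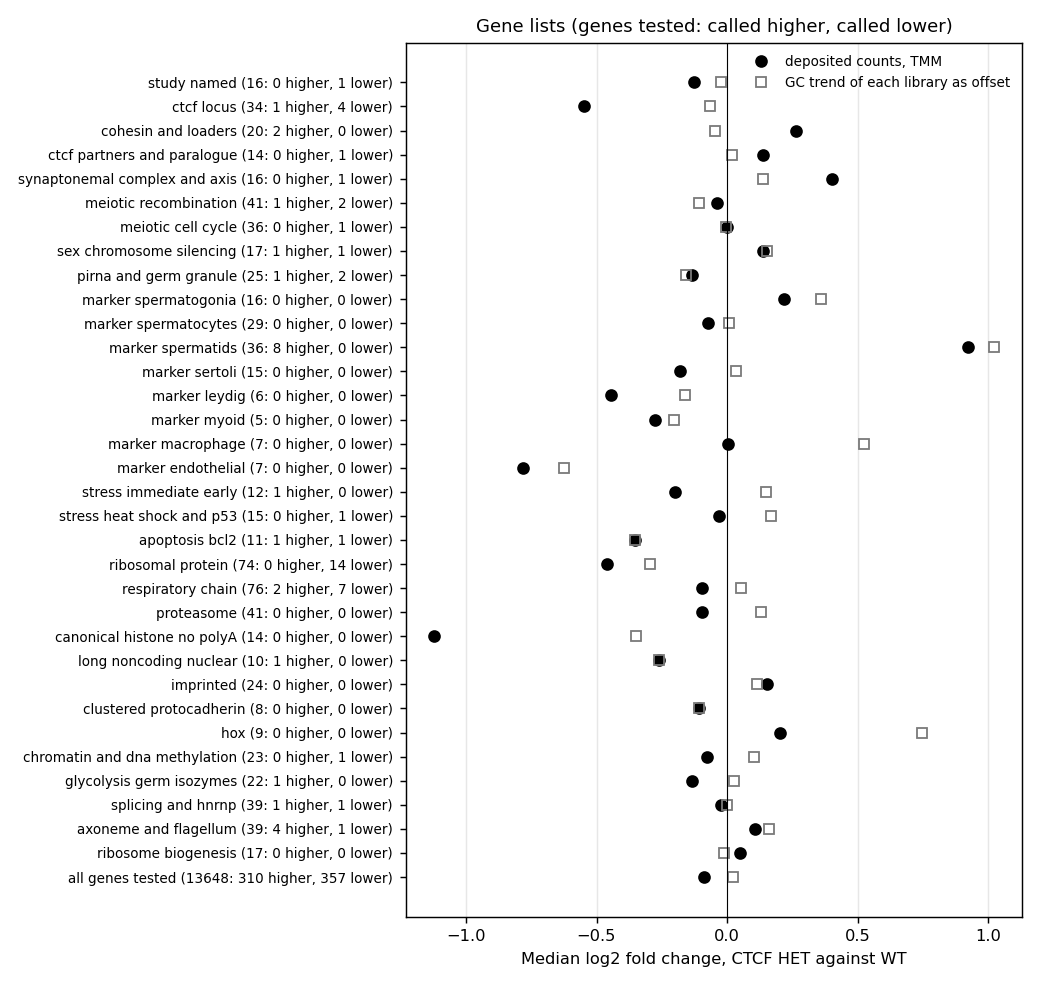
Median log2 fold change (CTCF HET against WT spermatocytes) of each gene list with at least 5 genes tested, filled circles for the deposited counts and open squares with the GC offset, with the number tested and called in the label. Spermatid markers lie farthest to the right on the deposited counts, at 0.92, and the *Ctcf* neighbourhood, at -0.547, lies near the median of all genes once the offset is used.

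The fold changes followed the GC content of the transcripts. The median GC content was 44.9% for genes called higher, 56.9% for genes called lower and 50.1% for all genes tested. Of 618 genes with at most 40% GC, 43 (6.96%) were called higher and 0 lower, with a median log2 fold change of 0.40. At the other end, of 361 genes above 61% GC, 5 (1.39%) were called higher and 49 (13.6%) lower, with a median of -0.82. The medians fell in each class from the lowest GC content to the highest. With the offset the medians of the 9 classes were between 0.008 and 0.101 by construction. In round spermatids the trend between CTCF HET and WT ran the opposite way, with medians from -0.398 in the lowest class to 0.589 in the highest.

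**Figure D4:**
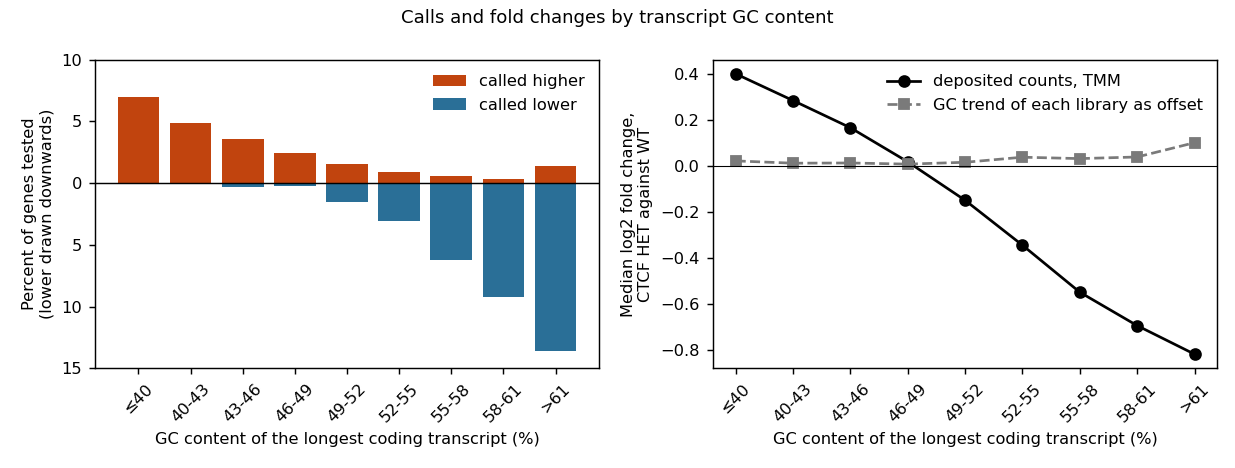
Left, percent of tested genes called higher and lower (drawn downwards) in CTCF HET spermatocytes by GC content of the transcript. Right, median log2 fold change in the same classes, circles for the deposited counts and squares with the GC offset. The median falls from 0.40 to -0.82 across the classes and is near 0 with the offset.

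Promoters bound by CTCF in WT testis were compared with the others. Peaks came from germ cells of whole testis, in a deposited list for each antibody and genotype without values per replicate. In WT, the CTCF and BORIS ChIP had replicate libraries, whereas H3K4me3 did not. Of 3949 tested genes with a CTCF peak within 1000 bases of their start, 55 (1.39%) were called higher and 123 (3.11%) lower, against 236 (2.56%) and 228 (2.47%) of 9218 genes without. For BORIS these were 34 (1.51%) and 83 (3.69%) of 2250 genes with a peak, against 257 (2.35%) and 268 (2.45%) of 10917 without. With either protein the share called lower was above, and the share called higher below, that of the genes without a peak. Their transcripts were richer in GC, with a median of 51.2% for CTCF against 49.6% without. Under the GC offset the CTCF-bound genes had 52 higher and 13 lower calls, against 173 and 20 of the 9218 genes without. The BORIS-bound genes had 28 and 8, against 197 and 25 of the 10917 without. By share, both contrasts kept their direction. For H3K4me3, a mark of active promoters, the calls were 210 (2.18%) higher and 309 (3.2%) lower of 9655 genes with a peak. Without a peak they were 81 (2.31%) higher and 42 (1.2%) lower of 3512. Under the GC offset these were 169 and 27 with a peak and 56 and 6 without. These differences were not tested.

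Round spermatids of the same genotypes, which are other libraries, were set beside the spermatocytes. Of 16152 genes tested there, 219 (1.36%) were called between CTCF HET and WT, 73 higher (0.452%) and 146 lower (0.904%), and this number also rested on single libraries, with 697 calls without WT 1, 17 and 70 without CTCF HET 2 and 3, and 1 without WT 2, WT 3 or CTCF HET 1. *Rltpr* was called in each of these fits. WT 1 stood apart from the other WT round spermatid libraries in several genes, such as *Ap3s1*, at 32.0 CPM against 120 and 148 CPM. Of the 667 genes called in spermatocytes, 8 were called in the same direction, 54 were higher in spermatocytes and lower in round spermatids, and 23 were lower in spermatocytes and higher in round spermatids. Without WT 1 of the round spermatids these numbers were 7, 92 and 153, without CTCF HET 2 they were 5, 2 and 0, without CTCF HET 3 they were 4, 9 and 7, and without WT 2, WT 3 or CTCF HET 1 they were 1, 0 and 0. Higher in both were *Rltpr*, *Slc7a2*, *Atp8b4*, *Myh13*, *Col1a1* and *2900097C17Rik*, and lower in both were *2010011I20Rik* and *Wsb2*. *Slc7a2*, a transporter of cationic amino acids, was at 8.70 and 7.98 CPM in WT and 21.6, 20.7 and 38.5 CPM in CTCF HET spermatocytes, and at 5.21, 4.73 and 4.91 against 19.3, 11.01 and 21.4 CPM in round spermatids. *Atp8b4*, a lipid flippase, was at 24.8 and 23.6 against 48.3, 48.7 and 64.5 CPM, and at 9.91, 8.12 and 8.22 against 19.3, 18.0 and 20.5 CPM. *Myh13*, a muscle myosin, was at 1.91 and 1.95 against 5.98, 6.19 and 6.39 CPM, and at 1.03, 1.00 and 0.926 against 4.76, 4.10 and 4.08 CPM. *Wsb2*, a substrate receptor of a ubiquitin ligase, was at 7.89 and 8.49 against 3.96, 2.44 and 2.68 CPM, and at 5.68, 6.14 and 7.01 against 1.72, 2.07 and 1.82 CPM. In these 4 genes the CTCF HET and WT libraries did not overlap in either cell type.

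The difference between the cell types was tested itself, as an interaction over 11 libraries. Of 16152 genes, 3842 (23.8%) were called, 1086 (6.72%) with a higher and 2756 (17.1%) with a lower effect in spermatocytes than in round spermatids. This split depended on the scaling, with 1810 and 1773 under RLE size factors, since the median of all genes was -0.334 under TMM and 0.034 under RLE. Of the 667 genes called in spermatocytes, 638 were called in the interaction. It holds the same spermatocyte libraries, so that number was largely set by the choice of genes. Leaving out single libraries gave 2160 (without WT spermatocyte 2) to 5145 calls (without CTCF HET spermatocyte 3). The trends on transcript GC content ran in opposite ways in the cell types. From the lowest to the highest class the medians went from 0.40 to -0.82 in spermatocytes and from -0.398 to 0.589 in round spermatids. The interaction was not run with the GC offset, so the part of GC content in these calls was not tested. *Cox8c* had a log2 difference of -3.18 ± 0.30 (adjusted p = 0.000609), being lower in CTCF HET spermatocytes and higher in CTCF HET round spermatids, at 311, 199 and 200 CPM in WT and 509, 711 and 464 CPM in CTCF HET round spermatids. *Rltpr* was higher in both, with a difference of -1.32 ± 0.36 (adjusted p = 0.0178).

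Against BORIS KO spermatocytes, which have both *Ctcf* alleles but lack *Boris*, 3461 of 13642 genes (25.4%) were called, 1253 (9.18%) higher and 2208 (16.2%) lower in CTCF HET (2535 calls without BORIS KO 1 to 4744 without CTCF HET 3). Several genes called against WT lay even further from BORIS KO. *1700008F21Rik* was at 847 and 602 CPM in WT, 2948, 2418 and 2316 CPM in CTCF HET and 229, 287 and 281 CPM in BORIS KO. *Slc25a39*, a mitochondrial carrier, was at 273 and 334 CPM in WT, 120, 110 and 110 CPM in CTCF HET and 604, 650 and 590 CPM in BORIS KO. In both genes WT lay between the other genotypes. Fold changes against BORIS KO also followed transcript GC content, with medians from 1.029 in the lowest class to -1.596 in the highest. The transcripts of these genes have 38.6% and 59.7% GC, and *Slc25a39* was not called against WT with the GC offset (log2 -0.66). The comparison with BORIS KO was not run with the offset, so the part of GC content in it was not tested. *Rltpr* and *Ap3s1* were instead near WT in BORIS KO, and their log2 differences of CTCF HET from BORIS KO were 4.33 and 2.76. Of the 667 called genes, 115 had a mean WT level, as printed here, within the range of the BORIS KO libraries. The WT levels were scaled with the CTCF HET libraries only, and the BORIS KO levels with all spermatocyte libraries. This number therefore compares levels on different scales and cannot tell how many genes were at the WT level in BORIS KO.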

How the data were processed

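For RNA-seq the authors aligned single-end reads to mm9 with STAR and deposited raw counts per gene symbol for 23284 genes. The counting tool, its annotation and the use of strand are not given in the sources used here. Of the sample columns, 20 were used and 3, the CM round spermatids, were not. The totals were 53337530 to 83897506 counts per library. For CTCF and BORIS peaks of whole testis the deposited height is a signal of unstated normalization, and for H3K4me3 the deposited lists hold a score. The whole-testis counts and the Pol2 and CM H3K4me3 lists were not used here. Genes were filtered with filterByExpr, scaled by TMM and tested with the quasi-likelihood F test of edgeR 4.0.16 (limma 3.58.1), without covariates, and were called at a Benjamini-Hochberg adjusted p below 0.05 and a fold change above 2. The authors used DESeq2 with an adjusted p below 0.001, which was run as an alternative (version 1.42.0). CPM values were computed from the counts with the TMM factors. For WT and CTCF HET spermatocytes these factors came from the libraries of these groups alone. For BORIS KO and CM spermatocytes they came from all spermatocyte libraries together, so small differences between these levels and those of WT or CTCF HET are not informative. Positions and GC content of the longest coding transcript came from GENCODE vM1 (mm9), which matched 21882 symbols, 126 of them through older or newer names; 20245 had a GC content. The GC offset was a lowess trend of each library (span 0.3). Peaks were assigned within 1000 bases of gene starts.

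Named genes were *Ctcf*, *Ctcfl*, *Rltpr*, those the study names, the 10 called in each direction with the smallest adjusted p and the 10 with the highest mean CPM, and up to 4 members of each gene list, called ones first. X-linked genes, genes kept with the GC offset and genes called in both cell types were named after their values were seen. The comparison, the lists and the rules were chosen with earlier results of these data known. Replicate numbers did not pair libraries. Alternatives were other scalings, DESeq2, other filters and thresholds, all 11 spermatocyte libraries in one fit, a replicate block, the GC offset and leaving out each library.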

Additional observations from a re-analysis of the deposited data

Results flagged for a closer look

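Among the 79 tested genes that are named in the text, 67 had an effect of CTCF HET that differed between spermatocytes and round spermatids by the edgeR interaction test. Of these, 37 had a higher and 30 a lower effect in spermatocytes. Over all genes, 3842 of 16152 (23.8%) were called. Of the 79 genes, 72 were called in the same spermatocyte libraries that enter the interaction, so the choice of genes largely set their number. At an adjusted p below 0.001 there were 13 of these 79 genes, given here as the log2 effect in spermatocytes minus that in round spermatids. The median of all genes was -0.334 on this scale under TMM and 0.034 under RLE size factors. The trends on transcript GC content ran in opposite ways in the cell types, and the interaction was not run with the GC offset.

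Of these genes, 9 lay above 0. The difference was 4.74 for *Gm595*, 3.83 for *Akap14*, 3.76 for *Rpgr* and 2.58 for *Akap4*, all X-linked and more than 8-fold higher in round spermatids than in spermatocytes. These 4 genes were called higher in CTCF HET spermatocytes, whereas in CTCF HET round spermatids their log2 fold changes were -1.22, -0.99, -0.95 and -0.93. The remaining differences were 2.84 for *Gm6455*, 2.38 for *Gpd2*, 2.42 for *Tssk2*, a testis kinase, 2.34 for *Zfand3* and 1.59 for *Fam184a*.

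Below 0 lay *Cox8c* with -3.18, *Sfi1* with -2.64, *Ndufs6* with -2.54 and *Rplp0* with -1.56. *Sfi1* had a log2 fold change of -0.05 in round spermatids, at 5.23, 6.30 and 6.09 CPM in WT and 5.68, 5.77 and 5.82 CPM in CTCF HET, with overlapping libraries, while in spermatocytes every CTCF HET library was below WT.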

How the results depend on the processing

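The number of called genes moved with single libraries and with the GC offset. All 667 called genes kept their direction in each fit without a library, which their lack of overlap between the groups fixed in advance. With the offset 665 kept it. Leaving out each library in turn gave 1 to 1827 calls, 1 to 497 of them higher and 0 to 1330 lower, the lowest without CTCF HET 2 (4484 genes at an unadjusted p below 0.05) and the highest without CTCF HET 3. With 1 WT library left, that library is assumed to vary like the CTCF HET libraries. The GC offset gave 275 calls, 38 of them lower, and one fit of all 11 spermatocyte libraries gave 1305, 913 of them lower. Without a fold threshold there were 2119 calls, 924 higher and 1195 lower. At an adjusted p below 0.001, edgeR made 0 calls in either direction (4128 genes at an unadjusted p below 0.05) and DESeq2 462, 166 of them lower, the latter chosen after seeing the data. The higher genes numbered 538 with DESeq2, 177 without a low-count filter and 483 with at least 10 counts in each library, and the lower genes 217 with upper-quartile scaling. The difference between the cell types was called for 96 genes at an adjusted p below 0.001 and for 2160 to 5145 without single libraries, and the comparison with BORIS KO for 1583 at an adjusted p below 0.001 and for 2535 to 4744 without single libraries. DESeq2 split the difference between cell types into 2024 higher and 1585 lower genes. Of 1106 values for the 79 tested genes that are named in the text, under 14 settings, 4 changed direction. With the GC offset these were *Dmrtb1* (log2 0.0177), *Ybx2* (0.203) and *Spo11* (-0.0904), and *Spo11* ranged from -0.0134 without WT 2 to 0.105 without CTCF HET 2. The cause of these changes was not tested. Same-numbered libraries of different genotypes deviated together, with a correlation over 0.1, in 2 of 15 pairs (-0.359 to 0.247), so the numbers do not pair the libraries. With the replicate number as a block, at 1 residual degree of freedom, there were 930 calls, 433 higher and 497 lower. In all 3 CTCF HET libraries 272 tested genes had 0 counts, at a median WT level of 0.283 CPM. Of these 272 genes 2 were called lower, and their fitted fold changes are no bounds.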

Other observations

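Part of the genes called higher in CTCF HET spermatocytes was not preferred by round spermatids. Of the 310, 99 were at most 2-fold higher in BORIS KO round spermatids than in BORIS KO spermatocytes, and 60 of these were also called with the GC offset. *Gm6455* was lower in round spermatids, at 1.85, 2.65 and 2.42 CPM in WT, than in spermatocytes, and *2900097C17Rik* was at 18.4 and 17.8 CPM in WT and 135, 87.5 and 41.4 CPM in CTCF HET spermatocytes (log2 2.28 ± 0.45, adjusted p = 0.0173). *Slc25a20*, the carnitine carrier of mitochondria, was at 43.1 and 43.4 CPM in WT and 103, 92.0 and 94.3 CPM in CTCF HET (log2 1.16 ± 0.11, adjusted p = 0.00388), and at 51.2, 53.8 and 52.8 CPM in BORIS KO spermatocytes. Every CTCF HET library was above every WT library in these genes.

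The share of all counts on the X chromosome, over 999 genes, was 0.0165% and 0.0153% in WT spermatocytes and 0.0783%, 0.0756% and 0.0316% in CTCF HET spermatocytes.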
